A study of Mus musculus with 8 samples.

Results

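The core circadian clock genes of mouse fibroblasts were followed through a short serum pulse given with or without cordycepin. They were taken by gene name: every non-control probe named Per1, Per2, Per3, Cry1, Cry2, Arntl, Clock, Nr1d1, Nr1d2 or Dbp in the array's own annotation. That gave 13 probes for 10 genes, out of 55681 probes on the array, and 12 of the 13, covering all 10 genes, were well above background on all 8 arrays. The cells were NIH3T3, an immortalised line of mouse embryonic fibroblasts, grown in 10% newborn bovine serum and then kept for 24 h in 0.5% serum. By the labels, the cordycepin plus serum group (n = 3 arrays) received 20 µM cordycepin for 90 min in all and fresh serum for the last 30 min. The paper's figure legend instead places the 90 min before the 30 min of serum. The serum group (n = 3) received the DMSO vehicle without cordycepin and the same serum pulse, and the no serum group (n = 2) received no pulse. DMSO was at 0.1% in every group. The labels do not give the vehicle time of the no serum cells, so a difference from them covers the serum pulse and any difference in vehicle exposure. Cordycepin is 3′-deoxyadenosine, an adenosine analogue that lacks the 3′ hydroxyl. According to the study's authors, its triphosphate ends the growth of poly(A) tails but does not end total pre-mRNA synthesis in intact cells. The labels describe independent triplicates and no culture received cordycepin alone, so its effect was measured only in serum-treated cells.

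The mammalian clock is a feedback loop of transcription. CLOCK and BMAL1, the product of Arntl, bind E-boxes and switch on the Per and Cry genes, whose proteins enter the nucleus and inhibit CLOCK and BMAL1, while the nuclear receptors REV-ERBα (Nr1d1) and REV-ERBβ (Nr1d2) repress Arntl. Dbp is an output of the loop that acts through D-boxes. Serum is a classical way of setting the clocks of cultured fibroblasts, and Per1 and Per2 are known to respond to it as immediate early genes, without new protein being made, in part through cAMP response elements (CREs).

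Because Per1 gave the largest difference among these genes, its promoter windows are shown first, followed by those of Cry1 and Cry2, which differ in E-box content, and of Per3, whose window holds D-boxes. The sequences are RefSeq windows on GRCm38.p6, each 250 bases before to 50 bases after a transcript start, read 5′ to 3′ on the gene's strand. Capitals mark an E-box (CACGTG), the core of a CRE (TGACG, or CGTCA on the other strand) or a D-box (TTATGTAA). Per1 windows 1 and 2 lie at chr11:69098699-69098998 and chr11:69099902-69100201 on the plus strand, Cry1 at chr10:85185005-85185304 on the minus strand, Cry2 at chr2:92434020-92434319 on the minus strand and Per3 at chr4:151044616-151044915 on the minus strand.
Per1 window 1: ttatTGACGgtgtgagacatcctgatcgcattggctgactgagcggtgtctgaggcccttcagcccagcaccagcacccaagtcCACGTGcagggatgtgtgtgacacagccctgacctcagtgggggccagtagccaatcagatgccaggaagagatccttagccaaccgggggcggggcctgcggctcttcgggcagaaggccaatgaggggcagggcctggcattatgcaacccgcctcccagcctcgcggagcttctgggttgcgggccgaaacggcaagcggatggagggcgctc
Per1 window 2: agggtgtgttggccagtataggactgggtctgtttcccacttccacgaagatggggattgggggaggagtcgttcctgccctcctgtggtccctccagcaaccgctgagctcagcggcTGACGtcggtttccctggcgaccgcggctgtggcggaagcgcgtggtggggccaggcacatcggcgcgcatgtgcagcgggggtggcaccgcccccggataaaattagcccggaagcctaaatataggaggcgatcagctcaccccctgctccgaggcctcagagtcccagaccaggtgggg
Cry1: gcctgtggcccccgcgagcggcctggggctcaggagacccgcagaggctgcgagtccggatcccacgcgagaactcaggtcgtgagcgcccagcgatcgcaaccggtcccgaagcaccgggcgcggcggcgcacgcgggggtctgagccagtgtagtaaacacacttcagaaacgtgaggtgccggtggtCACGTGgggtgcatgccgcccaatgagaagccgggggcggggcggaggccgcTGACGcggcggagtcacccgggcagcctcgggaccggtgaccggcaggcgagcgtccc
Cry2: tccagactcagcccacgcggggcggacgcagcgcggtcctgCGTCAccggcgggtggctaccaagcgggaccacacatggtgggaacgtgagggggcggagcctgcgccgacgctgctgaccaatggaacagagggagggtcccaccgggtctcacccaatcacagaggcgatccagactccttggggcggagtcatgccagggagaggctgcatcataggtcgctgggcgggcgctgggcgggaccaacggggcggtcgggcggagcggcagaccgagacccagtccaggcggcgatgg
Per3: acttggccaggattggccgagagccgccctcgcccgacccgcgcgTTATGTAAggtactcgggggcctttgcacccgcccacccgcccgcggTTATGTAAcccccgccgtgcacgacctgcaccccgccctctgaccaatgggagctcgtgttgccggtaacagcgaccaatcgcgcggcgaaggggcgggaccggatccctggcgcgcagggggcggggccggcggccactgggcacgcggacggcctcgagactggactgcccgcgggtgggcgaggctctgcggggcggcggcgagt
Per1 window 1 held an E-box starting at position -166 and a CRE core at -246, and window 2 held a CRE core at -132. Cry1 held an E-box at -60 and a CRE core at -8, whereas Cry2 held a CRE core at -209 and no E-box in these 300 bases. Per3 held D-boxes at -205 and -158. Searched on both strands, CACGTG was present in 7.15% of all 32851 RefSeq windows of this length, TGACG in 20.8% and TTATGTAA in 0.938%. A full CRE (TGACGTCA, which contains the core) was present in 1.79% of all windows and in none of the 13 windows found for 9 of the 10 genes, and the same was true of the CArG box, the serum response element core, at 1.63% of all windows. No window was available for Per2, so its promoter was not searched. The windows of Nr1d1, Nr1d2, Clock, Arntl and Dbp held none of the E-box, CRE core or D-box letters. A match of letters is a description of the window and not a binding site.

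Signals are given as log2 of Agilent's processed spot signal minus that array's own 75th percentile, where a value of 0 means a signal equal to that percentile. A gene with several probes was counted by its brightest tested probe, values are compared between arrays and never between probes, and a difference passed when limma's adjusted p, over all 30859 probes tested, was under 0.05. Shares over all genes are for that rule. Counts at an unadjusted p have no such share beside them, as it was not computed. The 75th percentile of the raw signal ran from 350.5 to 802.2 over the 8 arrays, 51.1% to 57.1% of the probes were well above background, and no spot was saturated. All arrays were on 1 slide and in 1 scan. All 9 fibroblast markers checked were well above background on all arrays, while of 4 epithelial markers none was so on all arrays (Krt8 on 7 of 8, Epcam on 1, Cdh1 and Krt18 on none). Of 3 endothelial markers, Pecam1 and Kdr were well above background on all arrays and the defining gene Cdh5 on none. Of 4 leukocyte markers, Cd68 was higher with cordycepin than with serum alone by 3.04 (limma adjusted p = 5.17e-05) and Itgam by 0.63 (limma adjusted p = 0.0219). Cd3e did not pass (0.13, limma adjusted p = 0.672). The log2 of the summed signal of these 4 markers was 4.75 to 5.08 with cordycepin against 3.91 to 4.10 with serum. Their defining member Ptprc was well above background on 3 of 8 arrays, 1 in each group, and the part of these markers in the results was not tested.

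Cordycepin lowered 5 of the 10 clock genes in serum-treated cells, namely Per1, Per2, Cry2, Clock and Nr1d1, and raised none. Among all 13421 genes tested, 7.73% were lower and 6.64% higher by the same rule. No clock gene was higher at an unadjusted limma p under 0.05 either. The median log2 difference of the 10 genes was -0.50, against 0.07 over all genes. Per1 passed the stricter rule of a log2 difference of at least 1 in size, which 2.52% of all genes did in the lower direction. With arrays centred on the spike-in probes, where the SE of each difference was 0.53, only Per1 passed, and the other four kept a lower estimate. Labelling in this assay starts from the poly(A) tail, so less RNA and less polyadenylated RNA cannot be told apart, nor can fewer expressing cells and less RNA per cell.

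**Figure D1:**
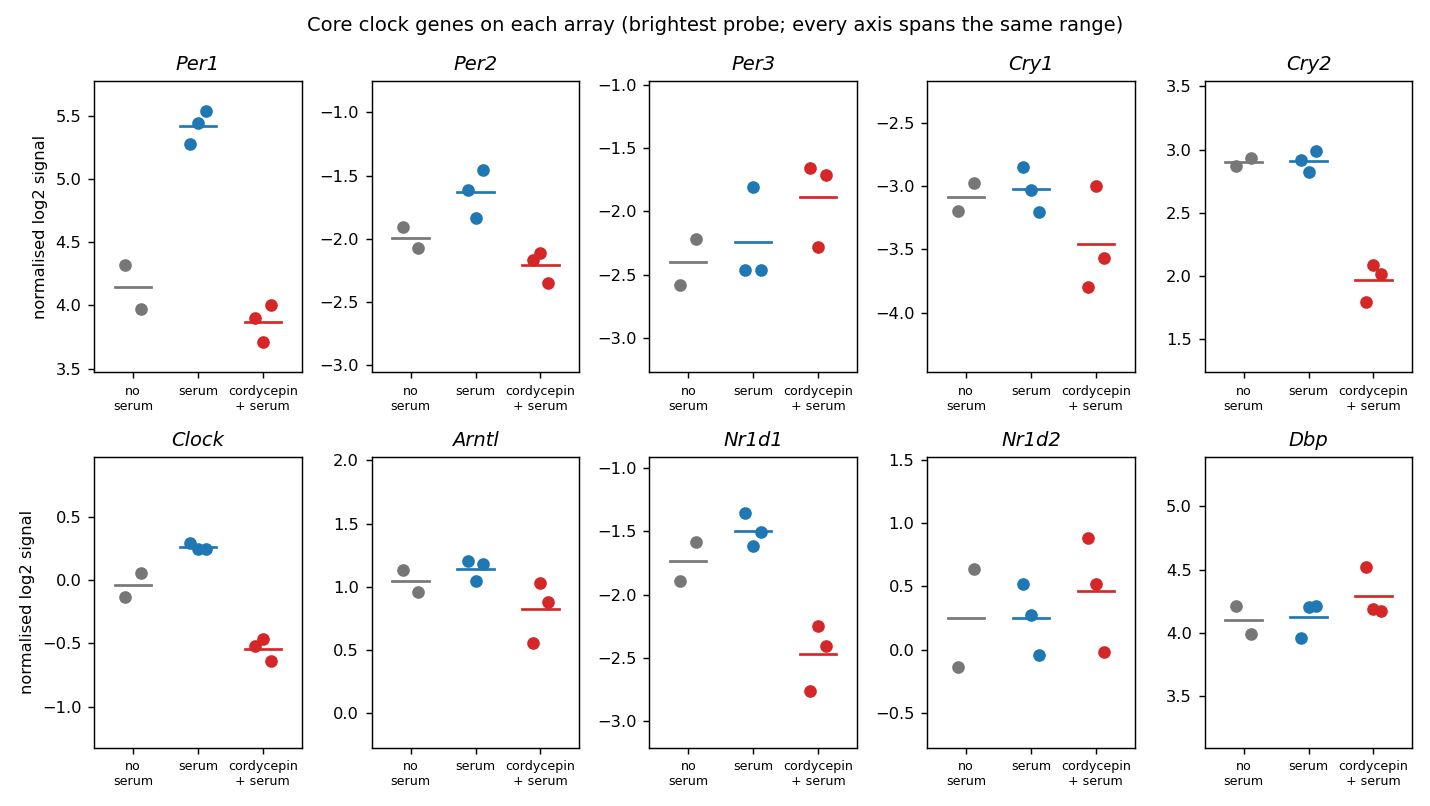
Normalised log2 signal (vertical axis) of the brightest probe of each of the 10 clock genes on every array, by group (horizontal axis). Points are arrays (n = 2, 3 and 3), lines are group means, and each panel spans the same log2 range. Per1 was high on the 3 serum arrays only, while Cry2 was similar with and without serum and low on the 3 cordycepin arrays.

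Per1, the Period gene that answers acute stimuli, had signals of 5.28, 5.44 and 5.54 on the serum arrays. With cordycepin it had 3.90, 3.71 and 4.0. All cordycepin arrays lay below all serum arrays, and the gap between the groups was wider than the spread within either. The difference was -1.55 ± 0.14 (SE, 95% interval -1.88 to -1.23, limma adjusted p = 0.000159), a 2.93-fold lower signal. The probe lies at chr11:68923364-68923423 on the plus strand of mm9. Another Per1 probe, designed to a cDNA that is not a RefSeq mRNA and placed upstream at chr11:68919895-68919954, was well above background on 2 of 8 arrays and was not tested, so Per1 rests on 1 probe.

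Per2, the partner of Per1 in the repressor complex, was also lower with cordycepin. Its values were -1.61, -1.83 and -1.46 with serum. They were -2.16, -2.11 and -2.35 with cordycepin. The groups did not overlap, and the difference was -0.58 ± 0.13 (SE, limma adjusted p = 0.0184). This call was close to the threshold: it was lost without cordycepin plus serum replicate 3 (difference -0.51, limma adjusted p = 0.0643), without serum replicate 1 (-0.56, limma adjusted p = 0.0627) or without serum replicate 3 (-0.49, limma adjusted p = 0.0682). With another background correction, normexp, the Per2 difference was -0.36 (limma adjusted p = 0.057), and with no filter on dim probes the adjusted p was 0.0716.

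Per3, the Period gene least needed for rhythm, did not pass. It had -2.46, -1.81 and -2.47 with serum and -1.65, -2.28 and -1.71 with cordycepin. The groups overlapped, the estimate was upward at 0.36, and its 95% interval ran from -0.19 to 0.92 (limma adjusted p = 0.338).

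The cryptochromes, the other repressors of the loop, gave unequal readings. Cry2 had 2.91, 2.82 and 2.99 with serum against 1.79, 2.09 and 2.01 with cordycepin. Every cordycepin array was well below every serum array, and the difference of -0.94 ± 0.12 (SE, limma adjusted p = 0.000733) was a 1.92-fold lower signal. Cry1 had -2.85, -3.03 and -3.21 with serum against -3.79, -3.0 and -3.57 with cordycepin. Cordycepin plus serum replicate 2 lay within the serum range and the other two cordycepin arrays below it. The Cry1 difference was -0.43 (95% interval -0.91 to 0.05, limma adjusted p = 0.201). Without that array it was -0.66 (limma adjusted p = 0.0321).

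In the activating limb, Clock fell and Arntl did not pass. Clock, the histone acetyltransferase partner of BMAL1, had the tightest serum values of the set, 0.29, 0.25 and 0.25. Its cordycepin values were -0.52, -0.46 and -0.64. The groups were far apart, with a difference of -0.80 ± 0.11 (SE, limma adjusted p = 0.00107). Arntl had 1.20, 1.05 and 1.18 with serum and 0.55, 1.03 and 0.88 with cordycepin. Its groups did not overlap either, but the nearest arrays almost touched, and the difference was -0.32 (95% interval -0.65 to 0.01, limma adjusted p = 0.165).

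Of the REV-ERB genes, Nr1d1 fell and Nr1d2 did not pass. Nr1d1 had -1.36, -1.62 and -1.50 with serum against -2.76, -2.25 and -2.40 with cordycepin. All cordycepin arrays lay below all serum arrays, with a difference of -0.98 ± 0.16 (SE, limma adjusted p = 0.00359). With normexp the difference was -0.58 (limma adjusted p = 0.00581). The array annotation gives no genome position for the Nr1d1 probe, so its sequence is shown as the identity of the item measured.
Nr1d1 probe: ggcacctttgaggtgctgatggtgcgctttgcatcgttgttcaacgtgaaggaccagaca
Nr1d2 was measured by a pair of probes. The brighter had 0.52, 0.27 and -0.04 with serum and 0.88, 0.52 and -0.02 with cordycepin, and the groups overlapped widely. Its difference was 0.21 (95% interval -0.45 to 0.86, limma adjusted p = 0.649), and the other probe, for a RefSeq mRNA, gave 0.18 (limma adjusted p = 0.70). The annotation places the brighter probe on chromosome 19, whereas the other probe and the Nr1d2 promoter window lie on chromosome 14. Whether the brighter probe measures Nr1d2 was not tested. The Nr1d2 values in the figures, pairs, correlations and medians use that probe.

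Dbp, the output transcription factor, had overlapping groups on each of its 2 probes. The brighter had 3.96, 4.21 and 4.21 with serum and 4.52, 4.19 and 4.17 with cordycepin. Its difference was 0.17 (95% interval -0.16 to 0.50, limma adjusted p = 0.445), and that of the other probe was 0.08.

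**Figure D2:**
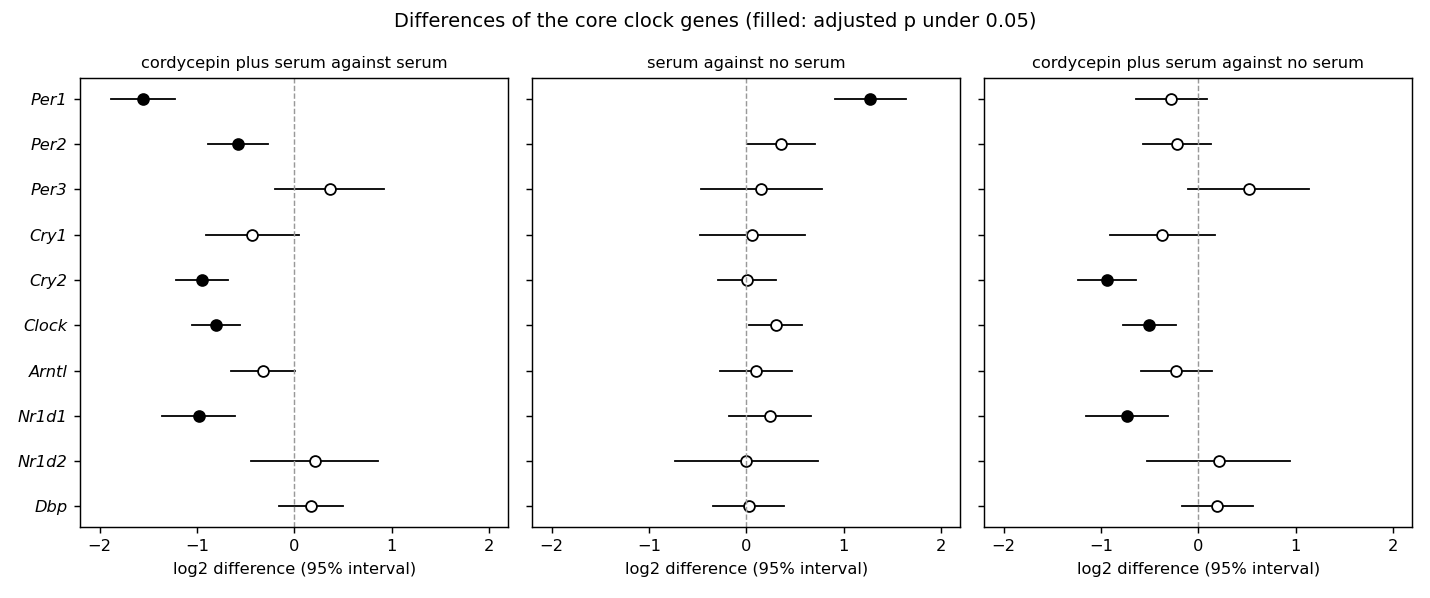
Log2 differences (horizontal axis) of the 10 clock genes with 95% intervals from limma in each of the 3 comparisons. Filled points passed at an adjusted p under 0.05: 5 genes in the left panel, 1 in the middle and 3 on the right. Only Per1 lay past a size of 1.

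To ask whether changes within families differed, 6 pairs of related genes were compared by the difference between their changes with cordycepin. With 3 arrays against 3, the exact permutation test cannot give a two-sided p below 0.1. The change of Per1 minus that of Per2 was -0.98 and minus that of Per3 was -1.91, and in each pair the differences on the cordycepin arrays did not overlap those on the serum arrays (exact p = 0.1). The same smallest p was found for Cry2 against Cry1 (-0.51), Clock against Arntl (-0.48) and Nr1d1 against Nr1d2 (-1.19), and Per2 against Per3 gave -0.94 (exact p = 0.2). The Benjamini-Hochberg value over the 6 pairs was 0.12 for the first 5 and 0.2 for the last. Because 0.1 was the smallest p possible, no pair could pass, and this test cannot decide whether the changes differed.

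**Figure D3:**
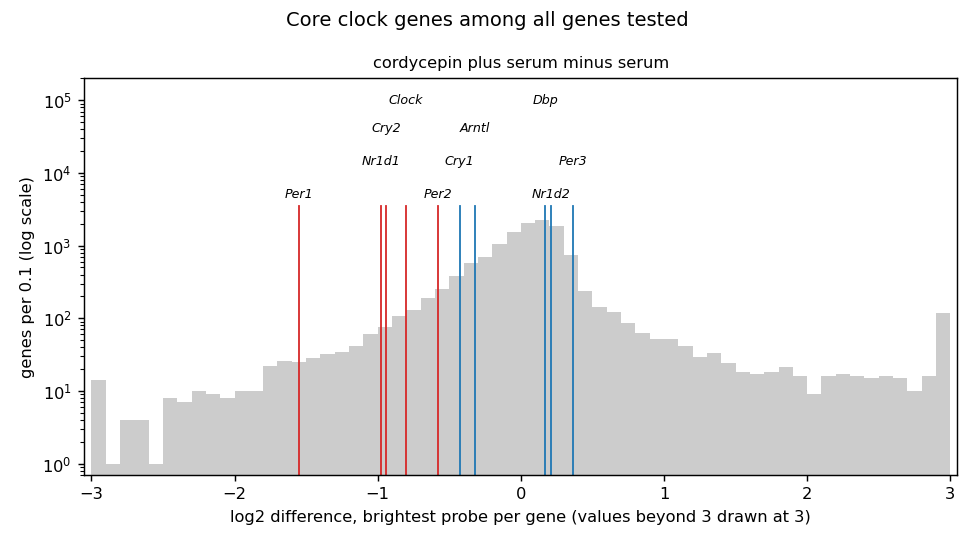
Number of genes (vertical log axis) by log2 difference between cordycepin plus serum and serum (horizontal axis), over the brightest probe of each of 13421 genes, in grey. Vertical lines are the clock genes, red where they passed and blue where they did not: the 5 red lines lie between -1.55 and -0.58, in the left part of the distribution.

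Serum alone raised 1 of the 10 clock genes, Per1, and lowered none. Among all genes 1.24% were higher and 0.127% lower by the same rule. Per1 had 4.32 and 3.97 without serum, below the serum values of 5.28, 5.44 and 5.54. The groups were well apart, and the difference was 1.28 ± 0.16 (SE, 95% interval 0.91 to 1.64, limma adjusted p = 0.00683), a 2.42-fold rise within 30 min. The call was lost without no serum replicate 2, which leaves that group with 1 array assumed to vary like the others (difference 1.10, limma adjusted p = 0.0625).

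For Per2 and Clock the serum and no serum arrays did not overlap but the differences did not pass. Per2 had -1.90 and -2.07 without serum, lower than its serum arrays by 0.36 (95% interval 0.01 to 0.70, limma adjusted p = 0.454). Clock had -0.14 and 0.06 without serum, and its difference was 0.30 (95% interval 0.03 to 0.57, limma adjusted p = 0.398). With Per1 they were the 3 clock genes at an unadjusted limma p under 0.05, and none was lower at that level. The share of all genes at that level was not computed. Cry2 had 2.87 and 2.94 without serum, within the range of its serum values, and its difference was 0.00 (95% interval -0.29 to 0.30). The other six genes had estimates from 0.00 to 0.24, the highest for Nr1d1, and overlapping groups. Spike-in centring moved the median of all probes to -0.36, and Per1 did not pass (0.93, limma adjusted p = 0.853). With it the estimates of Clock, Nr1d1, Cry2, Arntl, Cry1, Per3 and Dbp changed from above 0 to below 0. That of Nr1d2 was just below 0 already in the main fit (-0.0004). The median of the 10 genes was 0.13, against -0.01 over all genes.

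Set against cells without serum, the cordycepin-treated cells had lower Cry2, Clock and Nr1d1, which is 3 of 10 genes, and no higher clock gene, also at an unadjusted limma p under 0.05. Among all genes 5.48% were lower and 5.53% higher. These values share the cordycepin arrays with the first comparison. Cry2 was lower by -0.94 ± 0.13 (SE, limma adjusted p = 0.00195), with 2.87 and 2.94 in the no serum arrays against a highest cordycepin value of 2.09. Nr1d1 had -1.89 and -1.58 without serum, and its difference was -0.74 ± 0.18 (SE, limma adjusted p = 0.0296). Clock differed by -0.50 ± 0.12 (SE, limma adjusted p = 0.0241). In these 3 genes every cordycepin array lay below every array without serum.

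The Cry2 call held without any single array, while the other two did not. The Clock call was lost without cordycepin plus serum replicate 1 (difference -0.51, limma adjusted p = 0.0525), replicate 3 (-0.45, limma adjusted p = 0.0719) or no serum replicate 2 (-0.40, limma adjusted p = 0.181), and the Nr1d1 call without those arrays or no serum replicate 1 (differences -0.59, -0.77, -0.58 and -0.89, limma adjusted p = 0.0641, 0.0594, 0.209 and 0.0575). With normexp the Nr1d1 difference was -0.37 (limma adjusted p = 0.101) and that of Clock -0.40 (limma adjusted p = 0.0534).

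Per1 with cordycepin was 0.28 below its level without serum (95% interval -0.64 to 0.09, limma adjusted p = 0.302), and its lowest no serum array, 3.97, lay within the cordycepin values. Per2 was at -0.22 (95% interval -0.56 to 0.13, limma adjusted p = 0.387). Cry1 was at -0.37 (95% interval -0.91 to 0.17) and Arntl at -0.22 (95% interval -0.59 to 0.14). Per3 was at 0.52 (95% interval -0.11 to 1.14), Nr1d2 at 0.21 and Dbp at 0.19, and none of these passed. The median over the 10 genes was -0.25, against 0.06 over all genes.

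Beyond the core set, 23 further genes of the clock were listed by role, of which 20 could be tested. Npas2 and Fbxl21 were among those with no probe that met the filter. With cordycepin 3 of the 20 were lower than with serum alone and none was higher, beside 7.73% lower and 6.64% higher among all genes. At an unadjusted limma p under 0.05, 1 was higher, a count that those shares do not cover. The median difference was 0.05, against 0.07 over all genes. Nfil3, a repressor that competes with Dbp at D-boxes, had 3.37, 3.74 and 3.71 with serum and 1.79, 1.81 and 2.39 with cordycepin. It fell by 1.61 ± 0.20 (SE, limma adjusted p = 0.000748), and its groups were far apart. The other D-box factors, Tef and Hlf, were at 0.25 (limma adjusted p = 0.459) and -0.18 (limma adjusted p = 0.485).

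Bhlhe40 (DEC1), a repressor that binds E-boxes, had 2.10, 2.14 and 1.45 with serum and 0.97, 1.35 and 0.53 with cordycepin. The groups lay close to each other, with a difference of -0.95 ± 0.25 (SE, limma adjusted p = 0.0332). This call held without cordycepin plus serum replicate 2 or serum replicate 3 and was lost without any of the other six arrays, where the difference ran from -0.96 to -0.74 (limma adjusted p from 0.0555 to 0.104). It was also lost with no filter on dim probes (limma adjusted p = 0.0959) or spike-in centring (0.477). Wee1, the cell cycle kinase gene that is an output of the clock, had 0.33, 0.68 and 0.44 with serum and -0.49, -0.22 and -0.42 with cordycepin. It fell by 0.86 ± 0.13 (SE, limma adjusted p = 0.00211) and was also lower than without serum, by -0.57 ± 0.14 (SE, limma adjusted p = 0.032). The latter call was lost without cordycepin plus serum replicate 1 or 3, serum replicate 3 or either no serum array, where the difference ran from -0.58 to -0.52 (limma adjusted p from 0.0549 to 0.158). It was also lost with only the arrays compared (limma adjusted p = 0.051), the slide row (0.0561) or the replicate number (0.0576) as a block, no filter on dim probes (0.116) or spike-in centring (0.678). Arntl2, the paralogue of Arntl, was at 0.53 (limma adjusted p = 0.0547). The kinases and ubiquitin ligase parts that set the stability of PER and CRY proteins held no gene that passed on its brightest probe. Dimmer probes differed from the brightest for Rora (-0.72, limma adjusted p = 0.00841, against -0.28) and Gsk3b (0.75, limma adjusted p = 0.0107, against 0.22).

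**Figure D4:**
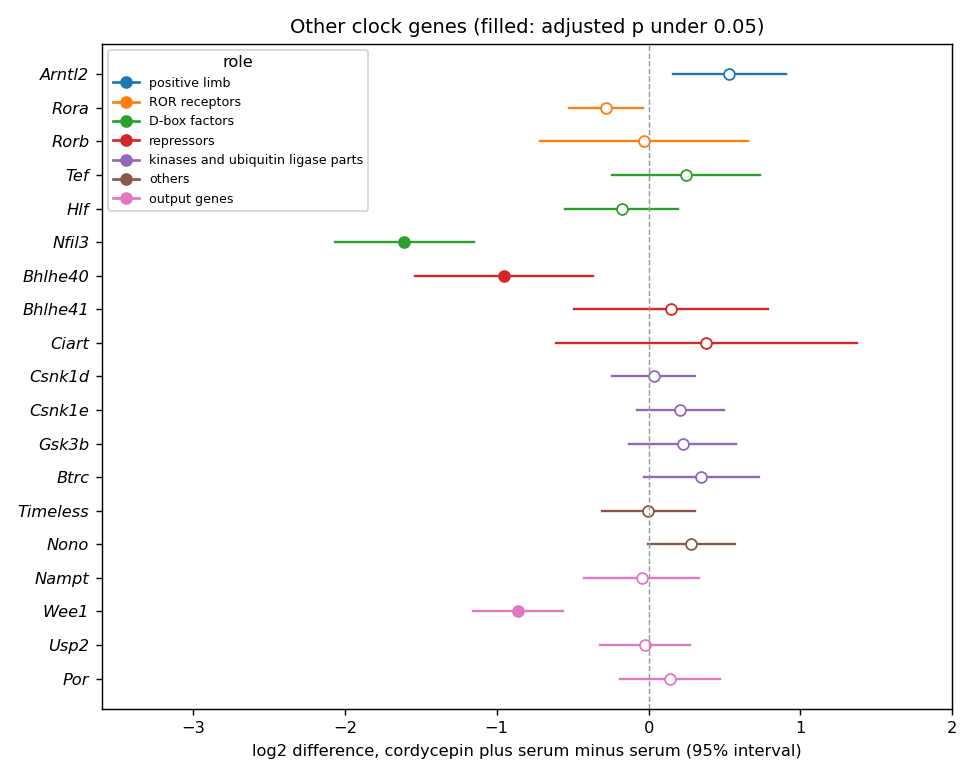
Log2 differences between cordycepin plus serum and serum (horizontal axis) with 95% intervals from limma for the further clock genes that were tested and are reported here, coloured by role. Filled points passed at an adjusted p under 0.05: Nfil3 at -1.61, Bhlhe40 at -0.95 and Wee1 at -0.86.

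Serum raised 1 of these 20 genes, Nfil3, from 2.33 and 1.99 without serum, by 1.45 ± 0.22 (SE, limma adjusted p = 0.0165), beside 1.24% higher among all genes. That call was lost without serum replicate 2 (1.38, limma adjusted p = 0.0511) or no serum replicate 2 (1.28, limma adjusted p = 0.14), with no filter on dim probes (limma adjusted p = 0.0808) and with spike-in centring (1.10, limma adjusted p = 0.853). None was lower, also at an unadjusted limma p under 0.05. Nfil3 was also among the genes whose signal was most like that of Per1 over the 8 arrays. Of 3307 genes whose signal varied with an SD of at least 0.3, the highest Pearson r with Per1 was that of Dusp5, a phosphatase of ERK (r = 0.989), followed by the transcription factor gene Klf6 (0.986), the kinase gene Plk3 (0.986), Nfil3 (0.984) and the F-box gene Fbxo30 (0.982). These values describe arrays of 3 groups that differ in treatment. Among the clock genes themselves r with Per1 was 0.88 for Per2, 0.84 for Clock, 0.74 for Nr1d1, 0.68 for Cry2, 0.61 for Arntl and 0.40 for Cry1. It was below 0 for Dbp (-0.25), Per3 (-0.27) and Nr1d2 (-0.34).

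The genes around the clock genes were looked at as well. Within 30 kb on mm9 there were 15 genes with a tested RefSeq mRNA probe around 7 of the 10 genes, each clock gene being placed by its own RefSeq mRNA probe. None passed for cordycepin plus serum against serum by limma, beside 7.73% lower and 6.64% higher among all genes. With only 15 genes, this does not set the neighbours apart from all genes. At an unadjusted limma p under 0.05 there were 3, and the differences ran from -0.61 to 0.39. The lowest was Sphk2, a sphingosine kinase gene beside Dbp (limma adjusted p = 0.0627). The neighbours of Per1 were Vamp2 at 0.39 (limma adjusted p = 0.168) and Hes7 at 0.19 (limma adjusted p = 0.479), neither of which passed.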

How the data were processed

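RNA of 8 cultures was labelled with Cy3 and hybridised to 1-colour Agilent mouse arrays. Per the file headers, the authors extracted the deposited spot intensity values in Feature Extraction 10.7.3.1, a program that removes local background and spatial trend, and probe positions are on mm9. Here each deposited processed signal was put on a log2 scale and centred on its array's 75th percentile over 59305 non-control spots. Outlier spots were left out and spots of a probe averaged. No array was dropped for any clock gene. Probes entered the test if some group had them well above background on all its arrays (30859 of 55681).

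Groups came from the labels. limma 3.58.1 in R 4.3.3 was fitted with 1 mean per group, all 8 arrays and without covariates, and two-sided p-values were corrected over every tested probe by the Benjamini-Hochberg method. Genes were named if they were members, if they were listed clock genes that passed or whose probes disagreed, or if they were among the 5 most like Per1. Arntl2, Tef, Hlf, Sphk2, Vamp2 and Hes7, the pairs compared and the neighbouring genes were chosen after values were seen. Some values of the listed clock genes are not reported here. The members and gene lists were chosen with earlier results of these data known. In simulated data for cordycepin plus serum against serum, with 30857 probes, 53 of 104 probes changed by a log2 of 1 and 81 of 96 changed by 2 were recovered, with 6 false calls. Far fewer probes changed in the simulation than were called in the data (2271 lower and 3704 higher). The adjusted p depends on that number, so the recovered shares need not hold for the data. Columns of per-sample values that could not be placed numbered 0. The number of arrays limits the precision.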

Additional observations from a re-analysis of the deposited data

How the results depend on the processing

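The count of clock genes lower with cordycepin than with serum, 5 in the report, was 5 with quantile normalisation, the mean of a gene's probes, only the arrays compared, the replicate block or the slide row as a block, 4 with normexp or no filter on dim probes, and 4 to 6 without any 1 array. It was 1 (Per1) with centring on the spike-in probes, where the SE of each difference was 0.53, and 1 under either rule that asks for a log2 difference of at least 1. For serum against no serum the count of higher genes was 1, and 0 with spike-in centring, and it ran from 0 to 1 without single arrays. For cordycepin plus serum against no serum the 3 lower genes became 1 (Cry2) with normexp, no filter, only the arrays compared or the replicate block, and 0 with spike-in centring or either rule of size, with 1 to 3 without single arrays. Of the other clock genes, 3 lower became 1 (Nfil3) with spike-in centring or either rule of size, 2 with no filter (without Bhlhe40) and 4 with the mean of probes (with Rora), and ran from 2 to 3 without single arrays, while 1 higher (Arntl2) appeared with the mean of probes. The cause of these shifts was not tested. Spike-in centring moved the median of all probes to -0.36 for serum against no serum, from -0.02, so the Per1 rise became 0.93 (limma adjusted p = 0.853). For cordycepin plus serum against serum, the calls over all probes were 2271 lower and 3704 higher, against 3406 and 3015 with quantile normalisation and 393 and 1495 with spike-in centring.

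None of the single-gene differences that passed changed sign under any alternative run: 114 of these values kept their call and 30 lost it. Among those that had not passed, 31 values changed sign. For serum against no serum these were, with spike-in centring, Per3 at -0.19, Cry1 at -0.29, Cry2 at -0.34, Arntl at -0.25, Clock at -0.0438, Nr1d1 at -0.10 and Dbp at -0.32. Cry2 became -0.0145 with normexp, -0.0174 with quantile normalisation, -0.028 with the replicate block and -0.0023 with the slide row, Dbp -0.0090 with quantile normalisation, and Nr1d2 0.19 with the replicate block and 0.0327 with the slide row. For cordycepin plus serum against no serum, Cry1 became 0.0677 with normexp, and Nr1d2 -0.21 and Dbp -0.22 with spike-in centring. Without single arrays, serum against no serum ran from -0.0648 to 0.34 for Per3, -0.052 to 0.17 for Cry1, -0.0359 to 0.0481 for Cry2, -0.39 to 0.39 for Nr1d2 and -0.0841 to 0.13 for Dbp. Nr1d2 ran from -0.0018 to 0.45 for cordycepin plus serum against serum and from -0.18 to 0.60 for cordycepin plus serum against no serum.

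The replicate numbers of the labels were not treated as pairs. Residual correlations of same-numbered cordycepin and serum arrays were -0.0006, -0.17 and 0.14. Those of no serum and serum arrays were -0.042 and 0.23. With so few arrays per group these values cannot show whether the samples were paired. With the replicate block Bhlhe40 was lower with cordycepin than without serum (-0.60, limma adjusted p = 0.0423), which it was not in the main fit (-0.82, limma adjusted p = 0.103). Bhlhe40 also passed in that comparison with normexp and no block (-0.83, limma adjusted p = 0.0375). The block also left Cry2 as the only core clock gene lower with cordycepin than without serum, as Clock and Nr1d1 lost their calls. None of the other counts given above changed by over 1.5 times with the block.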
